A study of Rattus norvegicus with 6 samples.

Results

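Laminins, fibulins and other secreted matrix glycoproteins were followed in rat olfactory ensheathing cells (OECs), glia that wrap olfactory axons, of which 3 cultured populations were measured. The group was a list of 45 gene names (laminin chains, basement membrane linkers, fibronectin and vitronectin, matricellular proteins, fibulins and elastic fibre proteins, and a few other glycoproteins), and its members were the probe sets annotated to 1 of those names alone. Of the 45, 43 had such a probe set among 14371 genes on the arrays: 23 on both of the array types used and 20 on the larger type only. Tnxb and Thbs1 had none. Of the 43, 39 had at least 1 probe set above the detection floor on at least 1 array, and Lama3, Lamb3, Tnr and Mfap4 did not. A member that passed because 1 population was bright had to differ from populations at the floor, so counts over the passing members describe them and do not show that the whole list moved.

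All cells came from the olfactory nerve layer of Wistar rat olfactory bulbs. OEC Ep was a primary culture kept for 1 week, with fewer than 3 population doublings, from rats at postnatal day 21. OEC Lp was a primary culture from rats of the same age after more than 50 doublings. A purity figure of 90% was stated for both primary cultures. TEG3 was a single clonal line, obtained by introducing SV40 large T antigen into OECs of rats that were 60 days old, so clone, large T, passage and donor age cannot be told apart in any comparison with it. All 3 were kept in DMEM with 3% fetal bovine serum, 20 µg/ml of pituitary extract and 2 µM of forskolin. In the study, the populations were chosen because OEC Ep and TEG3 support axon regeneration better than OEC Lp does. RNA came from pools of 3 cultures, and 1 array of type U34A and 1 of type RAE2.0 was used per population. P-values therefore measure how far the ratios between populations disagreed between U34A and RAE2.0, which also have different probes. The labels do not say which of the 2 pools of a population went on which array, so that disagreement may be technical.

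Laminins are heterotrimers of an alpha, a beta and a gamma chain that polymerise into the sheet of a basement membrane, where nidogens, perlecan and agrin join them to other components and to the cell surface. Schwann cells lie on such a membrane, OECs make laminin, and laminin is a classical substrate for growing axons. Matricellular proteins such as tenascin-C, periostin and the thrombospondins are secreted into the matrix and change adhesion more than they bear load, and fibulins and fibrillins build and stabilise elastic fibres.

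The arrays of a type were alike in depth of detection: 59.2 to 61.5% of U34A probe sets and 59.1 to 61.8% of RAE2.0 probe sets exceeded the floor, which was a scaled signal of 128 on U34A and 168 on RAE2.0. The number of arrays limits the precision. Markers of the labelled cell type were strongest in OEC Ep: over 11 OEC and Schwann cell markers on RAE2.0 the summed signals of OEC Ep, OEC Lp and TEG3 were 91297, 1892 and 1913, with 0, 8 and 10 of the 11 at the floor, and over 9 on U34A it was 35254, 5326 and 5822. On U34A 0, 3 and 1 of the 9 were at the floor. Sox10 was at the floor in OEC Lp on both types, and S100b and Ngfr were at the floor in OEC Lp and TEG3 on RAE2.0. On U34A, Ngfr stayed above the floor in all populations, at 12716, 2569 and 3621. Foxd3 was highest in OEC Lp there, at 980, 1491 and 630. Sums cover the markers that passed, and counts at the floor cover all on the array. Microglia and macrophage markers had summed signals of 56093, 2101 and 1914 over 11 genes on RAE2.0, with 1, 10 and 9 of 12 at the floor, and 26271, 1107 and 1189.9 over 7 genes on U34A, with 1, 5 and 6 of 8 at the floor. Neuron markers summed to 29784, 584 and 504 over 3 genes on RAE2.0, nearly all of it Nefl and Nefm, while Snap25, Syt1 and Rbfox3 were at the floor in every population. Fibroblast and meningeal markers summed to 75970.4, 136127 and 38660.3 over 12 genes on RAE2.0, with 7, 6 and 7 of 15 at the floor. Pericyte and smooth muscle markers summed to 20797, 3011 and 11443 over 7 genes there, with Acta2 and Cnn1 called lower in OEC Lp than in OEC Ep. Astrocyte markers summed to 8541, 63922 and 6306 over 5 genes, with Gja1 called higher and Aldoc lower in OEC Lp, and endothelial markers to 824, 1721 and 1066 over 4. The OEC, macrophage, neuron and pericyte sums were highest in OEC Ep, like most of the members called. Tagln alone gave 16374 of the pericyte sum in OEC Ep on RAE2.0 and 9082 of that in TEG3. On U34A, Tagln was at 9335 in OEC Ep and 8153 in OEC Lp. From OEC Ep to OEC Lp on RAE2.0, 4 pericyte markers fell at least 2-fold and 1 rose. The fibroblast and astrocyte sums were highest in OEC Lp, like Efemp1 and Fn1, but few genes carried them. In OEC Lp on RAE2.0, Gja1 gave 63164 of the astrocyte sum. Col3a1 (78964) and Col1a2 (36033) gave most of the fibroblast sum there. From OEC Ep to OEC Lp on that type, 5 fibroblast markers rose at least 2-fold and 4 fell. Among astrocyte markers 1 rose and 2 fell by that measure. Of the fibroblast markers, limma called Col3a1 and Prrx1 up and Thy1 down in this comparison. The part of these cell types in the member differences was not tested. In such bulk RNA, fewer cells of a type and less RNA per cell cannot be told apart.

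Most members were brightest in the short-term culture. On RAE2.0, where 38 members passed, the highest signal was in OEC Ep for 25, in OEC Lp for 7 and in TEG3 for 6, while over all 11542 RAE2.0 genes the shares were 27.2%, 34.1% and 38.7%. The full order OEC Ep above OEC Lp above TEG3, noted after the values were seen, was found in 16 of the 38 members (42.1%) and in 11.8% of all genes. In 17 of the 38 members at least 1 population was at the floor, so many of the ratios are lower bounds, written "at least". The log2 changes fitted over both types also take such signals at the floor. Where the types had 1 sign and only the lower population was at the floor, the fitted size is a lower bound too. It is printed without "at least". With 1 array per population on this type there is no test of these values.

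**Figure D1:**
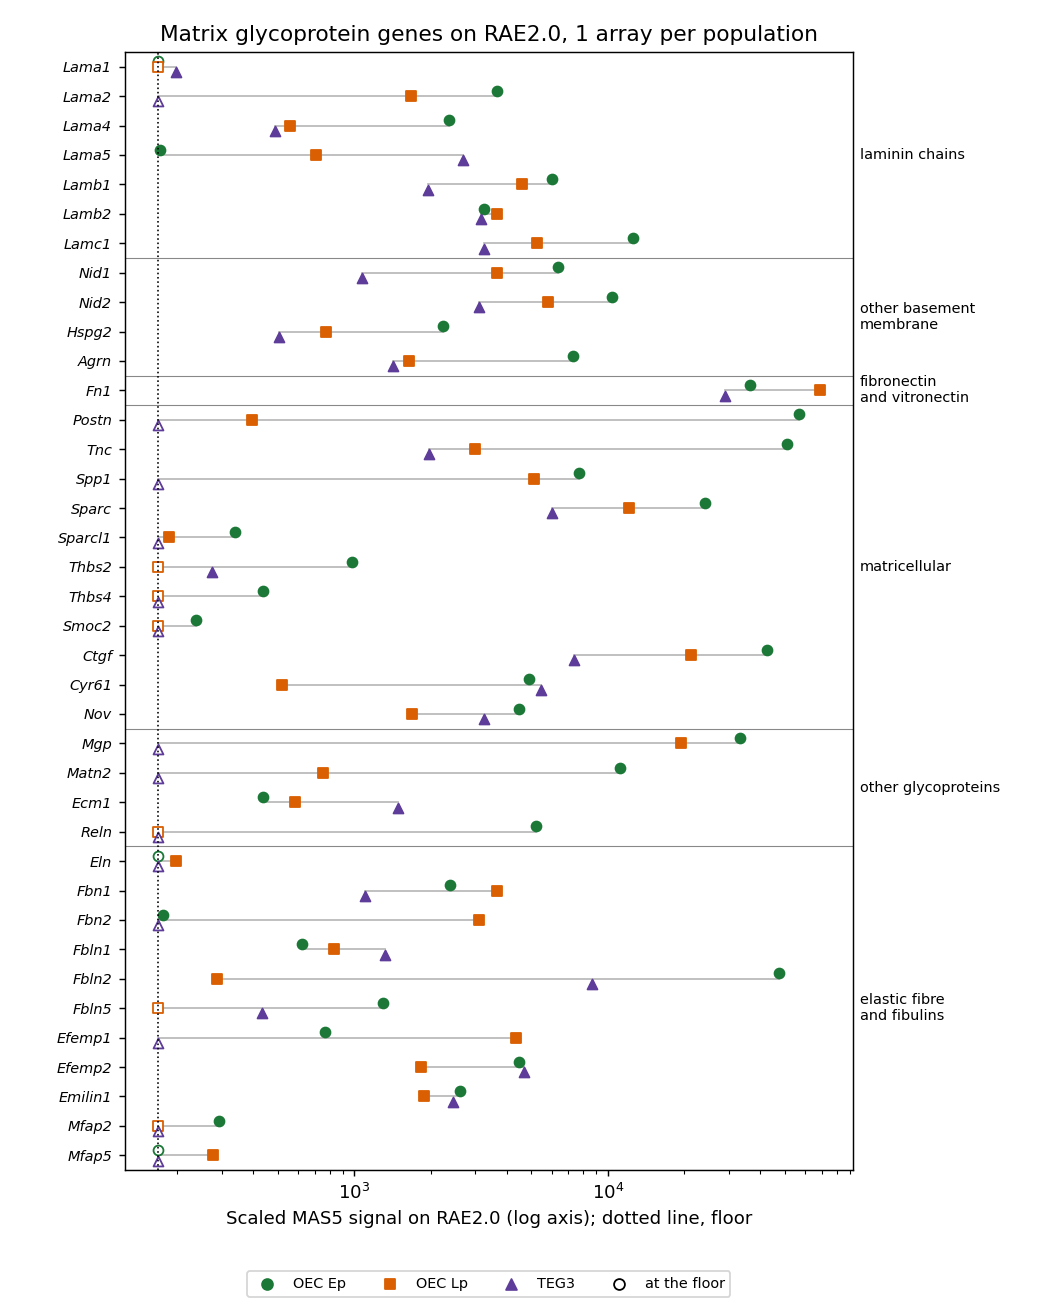
Scaled MAS5 signals of the 38 members that passed on RAE2.0, on a log axis, 1 row per gene and 1 array per population (circle, OEC Ep; square, OEC Lp; triangle, TEG3; open symbols and the dotted line, the floor of 168). OEC Ep is the rightmost symbol in 25 of the 38 rows, with the widest gaps at Postn, Mgp, Fbln2 and Matn2.

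OEC Lp against OEC Ep, the comparison of long with short culture, had 5 members that fell (Postn, Reln, Tnc, Fbln5 and Thbs4) and 1 that rose (Efemp1), out of the 17 members measured on both types (limma, Benjamini-Hochberg adjusted p under 0.05 over 3131 genes). These are 29.4% and 5.88% of the members tested, and over all genes 4.02% were called lower and 2.11% higher. Thbs4 passed the filter through OEC Ep alone on both types, so its direction was fixed in advance. The median log2 ratio of the 17 was −1.84, against 0.11 over all genes, and 16 of them had the same sign on both types, as did 62.4% of all genes. On RAE2.0, OEC Lp was at least 2-fold below OEC Ep in 16 of 38 members and at least 2-fold above it in 3, and over all RAE2.0 genes 10.4% were lower and 10.4% higher by that measure. The calls depended on single arrays: without any 1 of the OEC Ep or OEC Lp arrays 0 members were called, and without either TEG3 array 3 were, Postn, Reln and Tnc. Without the floor the same 3 were called, and with no filter on dim probe sets 0 were.

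TEG3 against OEC Ep, which uses the same 2 OEC Ep arrays as its reference, had 6 members that fell (Postn, Mgp, Spp1, Reln, Tnc and Agrn), 35.3% of the 17, where 3.7% of all genes were called lower. In that comparison 0 members rose (limma; also 0 at an unadjusted p under 0.05), and over all genes 0.639% were called higher. The median log2 ratio was −1.84 again, against 0.04 over all genes, and 14 of the 17 had the same sign on both types, as did 64.5% of all genes. On RAE2.0, 23 of the 38 members were at least 2-fold lower in TEG3 and 3 at least 2-fold higher, where over all genes 10.6% were lower and 12% higher. Leaving out any 1 of the 6 arrays ended all 6 calls, and without the floor 3 of them (Postn, Reln and Tnc) were made.

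TEG3 against OEC Lp had 1 member called, Efemp1, which was lower in TEG3, and 0 that were higher (limma; 1 was higher and 4 lower at an unadjusted p under 0.05). Over all genes 1.02% were called lower and 0.192% higher. The median log2 ratio of the 17 was −0.61, against −0.01 over all genes, and 12 of them had the same sign on both types, as did 57.0% of all genes. On RAE2.0, 13 members were at least 2-fold lower in TEG3 and 6 at least 2-fold higher, where over all genes 8.66% were lower and 9.61% higher. Leaving out any 1 array, or the floor, ended this call.

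**Figure D2:**
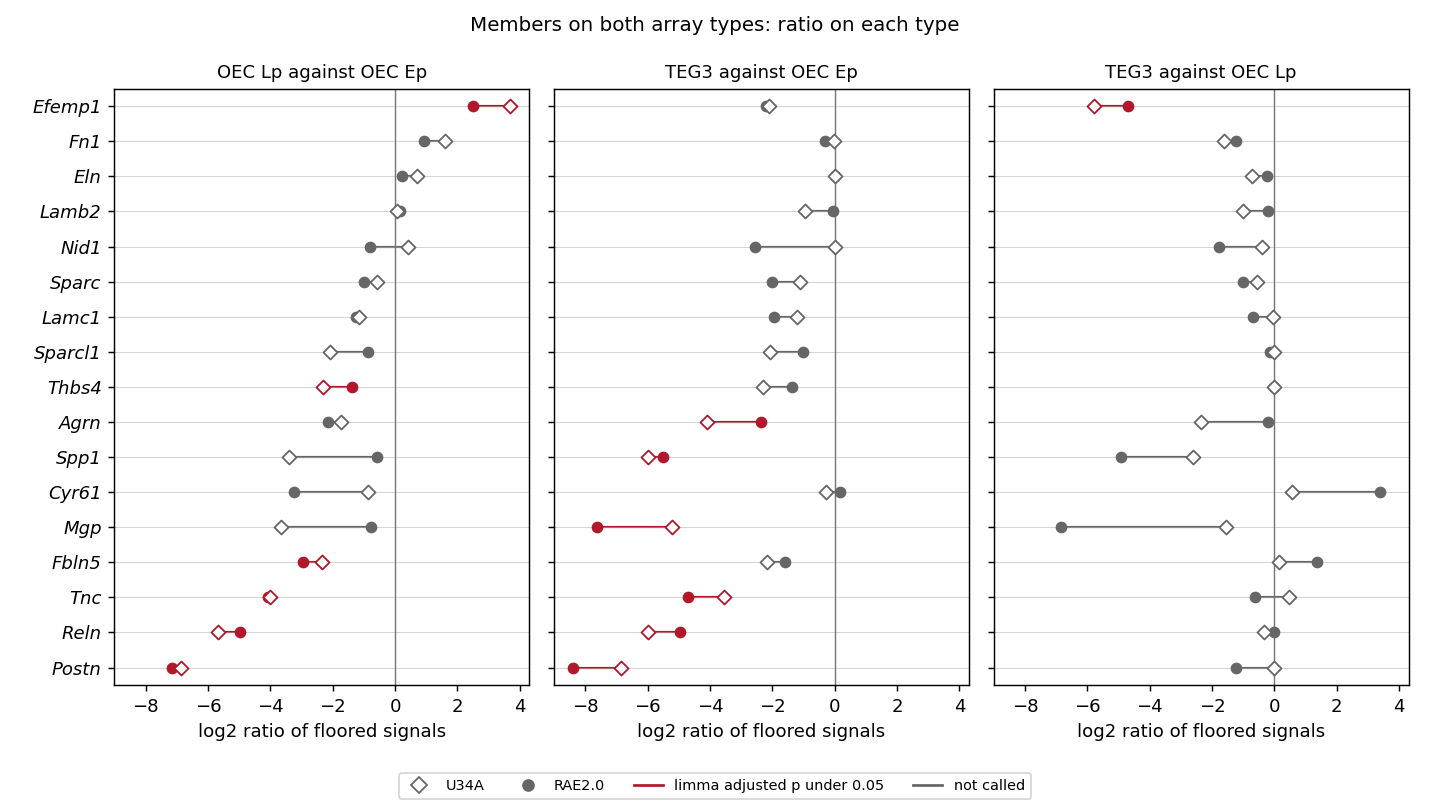
Log2 ratios of floored signals for the 17 members on both array types, 1 panel per comparison (open diamond, U34A; filled circle, RAE2.0; the line joins the types; red, called by limma). Postn, Reln and Tnc lie far to the left on both types in both comparisons with OEC Ep. Efemp1 is the rightmost gene in OEC Lp against OEC Ep and lies on the left in TEG3 against OEC Lp. In OEC Lp against OEC Ep, Mgp, Spp1 and Cyr61 have the longest lines, where the types differ in size. The longest line is that of Nid1 in TEG3 against OEC Ep (0 on U34A, −2.57 on RAE2.0), and that of Mgp in TEG3 against OEC Lp.

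Among the laminin chains, 7 passed on RAE2.0. Only Lamb2 and Lamc1 passed on both types and were tested, and neither was called in any pairwise comparison. No alpha chain was tested. The widest ratios were in alpha chains. Lama2, the alpha chain of the laminin of peripheral nerve and muscle, had signals of 3643 in OEC Ep, with 1670.0 in OEC Lp and the floor in TEG3, at least 21.7-fold lower in TEG3 than in OEC Ep, while its U34A probe set was below the floor on all arrays, OEC Ep included. Lama4, an alpha chain of nerve and vessel basement membranes, had signals of 2368, 557 and 486, so both OEC Lp and TEG3 stood below OEC Ep. Of its 2 probe sets 1 was at the floor in OEC Lp and TEG3, and the other gave 7.12-fold and 9.32-fold. Lama5, an alpha chain widespread in adult basement membranes, ran the other way: its signals were 171 in OEC Ep, with 706 in OEC Lp and 2681 in TEG3, which is 15.7-fold higher in TEG3 than in OEC Ep. That value rests on 1 of the 3 Lama5 probe sets on RAE2.0, since the other 2 and the 1 on U34A were below the floor on all arrays. The Lama5 signal in OEC Ep was close to the floor of 168. Lama1 was at the floor in OEC Ep and OEC Lp and at 198 in TEG3, close to the floor.

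The beta and gamma chains had pairwise ratios under 4-fold. Lamb1, a beta chain, had RAE2.0 signals of 6011 in OEC Ep, with 4588 in OEC Lp and 1951 in TEG3, lowest in TEG3. Lamb2, the beta chain of the neuromuscular junction and of peripheral nerve, had signals of 1235, 1300.2 and 644 on U34A, and 3263, 3664 and 3167 on RAE2.0, with OEC Ep and OEC Lp close on both types. Its log2 ratio of OEC Lp to OEC Ep was 0.12 ± 0.36 (SE; limma adjusted p = 0.892). Lamc1, the gamma chain of most laminins, had signals of 3841, 1728 and 1669.8 on U34A, and 12525, 5261 and 3252 on RAE2.0. OEC Ep was the highest on both types, and the log2 ratios to it were −1.20 for OEC Lp (limma adjusted p = 0.124) and −1.57 for TEG3 (adjusted p = 0.068), neither of which passed.

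The linkers of the laminin sheet had the order of Lamc1 on RAE2.0. Nid1, or nidogen-1, which joins laminin to collagen IV, had RAE2.0 signals of 6374 in OEC Ep, with 3646 in OEC Lp and 1072 in TEG3, but on U34A it was at the floor in OEC Ep and TEG3 and at 170.0 in OEC Lp, so the types differed in the sign of the OEC Lp to OEC Ep ratio. Hspg2, perlecan, the large heparan sulfate proteoglycan of basement membranes, had signals of 2232, 777 and 506 on RAE2.0, 4.41-fold lower in TEG3 than in OEC Ep. Agrn, agrin, a proteoglycan that binds laminin and clusters receptors at synapses, had signals of 4116, 1249 and 242 on U34A, and 7298, 1646 and 1419 on RAE2.0. OEC Ep was the highest on both types. Against OEC Ep, Agrn fell by 3.23 ± 0.56 (SE) on the log2 scale, or 9.36-fold, in TEG3 (limma adjusted p = 0.043), and its log2 ratio of −1.93 in OEC Lp did not pass (adjusted p = 0.134). Nid2 lay within the same pattern, with 3.34-fold between OEC Ep and TEG3. Of the 11 laminin and basement membrane members on RAE2.0, 8 had the order OEC Ep, OEC Lp, TEG3 (72.7%), and Lama1, Lama5 and Lamb2 did not. Over all RAE2.0 genes 11.8% had it. The order was noted after the values were seen and rests on 1 array per population.

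**Figure D3:**
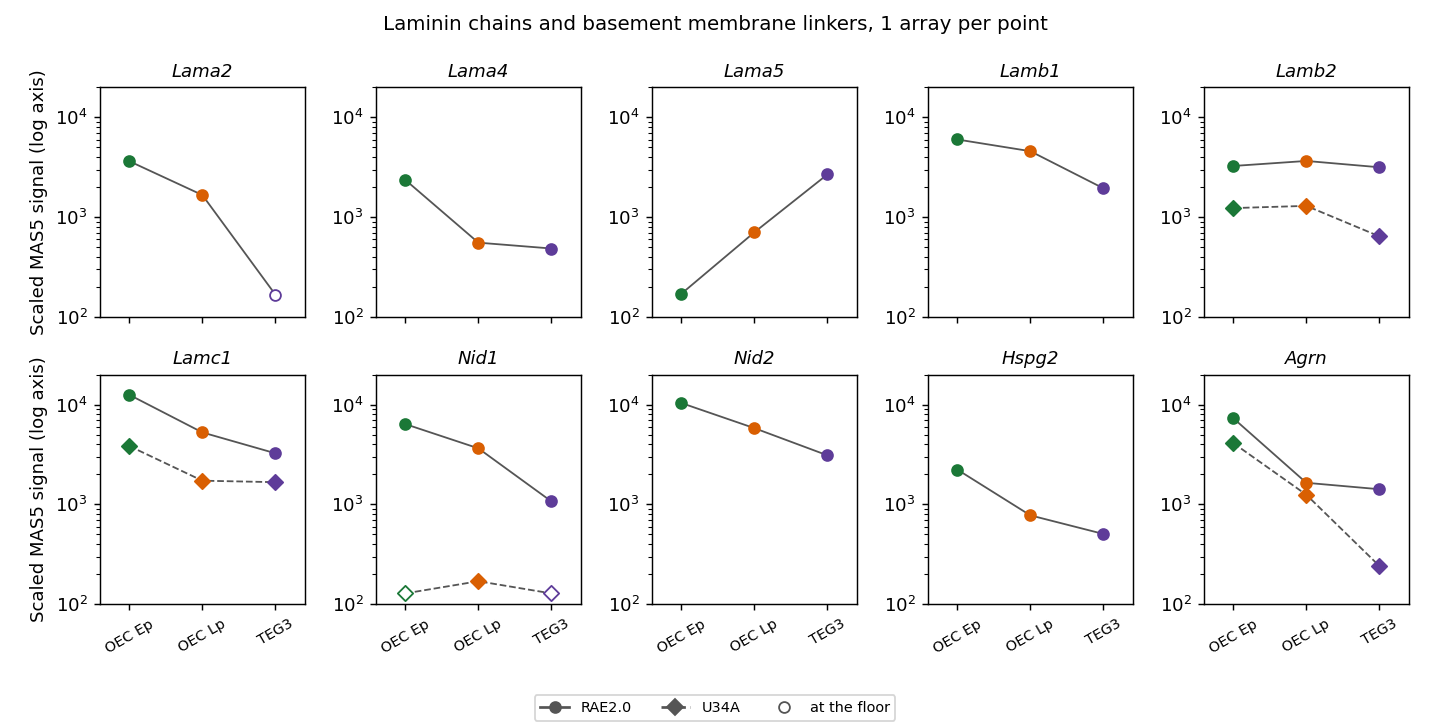
Scaled MAS5 signals of 10 laminin chains and basement membrane linkers in the 3 populations on a log axis, 1 array per point (circles and solid lines, RAE2.0; diamonds and dashed lines, U34A; open symbols, at the floor; lines only join the arrays of a type). The RAE2.0 signal is lower at each step from OEC Ep to TEG3 in 8 of the 10 panels, Lamb2 is nearly level on that type, and Lama5 runs from 171 up to 2681.

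Fn1, fibronectin, the adhesive glycoprotein bound by integrins, was brightest in OEC Lp on both types but did not pass a test. Its signals were 1326 in OEC Ep, with 3988 in OEC Lp and 1304.8 in TEG3 on the U34A arrays, and 36415, 68574 and 29031 on RAE2.0. OEC Lp was the highest on each type, while OEC Ep and TEG3 lay close. The log2 ratio of OEC Lp to OEC Ep was 1.25 (limma adjusted p = 0.101) and that of TEG3 to OEC Lp −1.43 (adjusted p = 0.121). Fn1 had 5 probe sets on U34A, looked at singly after the values were seen, and OEC Lp was the highest on each, by 1.63-fold to 7.85-fold over OEC Ep. Vtn, vitronectin, another adhesive glycoprotein, passed on U34A only, with 212 in OEC Ep and the floor in OEC Lp and TEG3.

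The matricellular members held Postn, which had the largest fall among the 17 tested members in both comparisons with OEC Ep. Postn, periostin, a fasciclin-domain protein of collagen-rich matrix, had a signal of 14838 in OEC Ep and was at the floor in OEC Lp and TEG3 on U34A. On RAE2.0 it had 56582, 394 and the floor, so OEC Ep stood far above the rest on both types. Postn fell by 7.01 ± 0.45 (SE) on the log2 scale in OEC Lp (limma adjusted p = 0.00469), and fell by 7.62 ± 0.45 in TEG3 (adjusted p = 0.00338). By type, OEC Lp was at least 116-fold lower on U34A and 144-fold lower on RAE2.0, and TEG3 at least 116-fold and at least 337-fold. Tnc, tenascin-C, a large hexameric protein of developing and injured nerve, had signals of 3159.6, 194 and 267 on U34A, and 50939, 2998 and 1969 on RAE2.0. OEC Lp and TEG3 were both low, and their order reversed between the types. Tnc fell by 4.05 ± 0.39 (SE) in OEC Lp (limma adjusted p = 0.00912), and fell by 4.13 ± 0.39 in TEG3 (adjusted p = 0.0108). On RAE2.0 the folds were 17.0 and 25.9. Of its 3 probe sets on U34A, 1 was at the floor in OEC Lp and another in TEG3, and the one above the floor on all arrays gave 13.1-fold and 5.09-fold.

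Of osteopontin and the thrombospondins measured, only osteopontin was above the floor in OEC Lp. Spp1, osteopontin, an integrin ligand that macrophages also secrete, had signals of 18218 in OEC Ep, with 1727 in OEC Lp and 286 in TEG3 on the U34A arrays, and 7698, 5127 and the floor on RAE2.0. OEC Lp lay between the others on both types, 6.04-fold above TEG3 on U34A and 1.5-fold below OEC Ep on RAE2.0. Spp1 fell by 5.76 ± 0.70 (SE) in TEG3, with folds of 63.7 on U34A and at least 45.8 on RAE2.0 (limma adjusted p = 0.0173), and its log2 ratios in OEC Lp were −3.40 on U34A and −0.59 on RAE2.0 (adjusted p = 0.202). Thbs4, thrombospondin-4, a pentameric matrix protein, had 630.0 in OEC Ep on U34A and 436 on RAE2.0 and was at the floor in OEC Lp and TEG3 on both. It fell by 1.84 ± 0.37 (SE) in OEC Lp, with folds of at least 4.91 on U34A and at least 2.60 on RAE2.0 (limma adjusted p = 0.0491), while the same ratio in TEG3 had an adjusted p of 0.058. Thbs4 passed the filter through OEC Ep alone on both types, so the direction of these ratios was fixed in advance. Without the floor, the OEC Lp ratio did not pass (limma adjusted p = 0.121). Thbs2, a thrombospondin that limits vessel growth, had RAE2.0 signals of 981 in OEC Ep, the floor in OEC Lp and 274 in TEG3, at least 5.84-fold lower in OEC Lp than in OEC Ep.

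Sparc, a collagen-binding protein secreted by many glia, had signals of 15676, 10553 and 7165 on U34A, and 24129, 12096 and 6040.5 on RAE2.0. Both types had the order OEC Ep, OEC Lp, TEG3, with log2 ratios to OEC Ep of −0.78 in OEC Lp (limma adjusted p = 0.296) and −1.56 in TEG3 (adjusted p = 0.0733). Of its 4 U34A probe sets, looked at singly after the values were seen, 3 had that order and 1 was highest in TEG3 (27474, 27197 and 37632). Sparcl1, its relative, was low, with 542 in OEC Ep on U34A and 337 on RAE2.0, and did not pass. Of the CCN family, Ctgf, a target of TGF-beta and of mechanical strain, had RAE2.0 signals of 42587 in OEC Ep, with 21375 in OEC Lp and 7364 in TEG3, a 5.78-fold range. Cyr61 was instead lowest in OEC Lp, with 640.0, 354 and 522 on U34A and 4884, 521 and 5450.1 on RAE2.0. Its log2 ratio of OEC Lp to OEC Ep was −2.04 (limma adjusted p = 0.195). Nov had the order OEC Ep, TEG3, OEC Lp on RAE2.0, with 2.65-fold between the ends. Smoc2 was above the floor in OEC Ep alone, on 1 of its 3 probe sets.

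Of the other glycoproteins, Reln and Matn2 were far brighter in OEC Ep than in the others. Reln, reelin, the secreted guidance protein that positions neurons and is also made by olfactory glia, had signals of 8168 in OEC Ep, with 160.0 in OEC Lp and the floor in TEG3 on the U34A arrays, and 5233 in OEC Ep and the floor in the others on RAE2.0. It fell by 5.32 ± 0.36 (SE) in OEC Lp (limma adjusted p = 0.00469), and fell by 5.48 ± 0.36 in TEG3 (adjusted p = 0.00407). By type, OEC Lp was 51.0-fold lower on U34A and at least 31.1-fold lower on RAE2.0, and TEG3 at least 63.6-fold and at least 31.1-fold, where the RAE2.0 value is the mean of 2 probe sets at 14.6 and 66.2. Matn2, matrilin-2, a filament-forming adaptor protein, had RAE2.0 signals of 11193, 750.0 and the floor, 14.9-fold lower in OEC Lp and at least 66.6-fold lower in TEG3.

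Mgp, matrix Gla protein, an inhibitor of calcification, had signals of 9099, 729 and 247 on U34A, and 33179, 19497 and the floor on RAE2.0. TEG3 was the lowest on both types, and OEC Lp was close to OEC Ep on RAE2.0 alone. Mgp fell by 6.41 ± 1.16 (SE) in TEG3, with folds of 36.8 on U34A and at least 197 on RAE2.0 (limma adjusted p = 0.0466), and its ratio in OEC Lp, −2.20 on the log2 scale, did not pass (adjusted p = 0.38). Ecm1, a secreted glycoprotein of skin and vessels, was higher in TEG3 than in OEC Ep on RAE2.0, by 3.39-fold.

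The fibulins differed among themselves. Efemp1, or fibulin-3, had signals of 549 in OEC Ep, with 7124 in OEC Lp and the floor in TEG3 on the U34A arrays, and 767, 4358 and the floor on RAE2.0. OEC Lp was the highest and TEG3 the lowest on both types. Efemp1 rose in OEC Lp against OEC Ep by 3.10 ± 0.40 (SE) on the log2 scale, or 8.59-fold (limma adjusted p = 0.0162), and fell by 5.25 ± 0.40 in TEG3 against OEC Lp (adjusted p = 0.0232), with folds of at least 55.5 on U34A and at least 25.9 on RAE2.0. Its log2 ratio of TEG3 to OEC Ep, −2.14, had an adjusted p of 0.051. Fbln5, fibulin-5, which helps elastin assemble, had signals of 2103, 419 and 467 on U34A, and 1302, the floor and 432 on RAE2.0. OEC Ep was the highest on both. Fbln5 fell by 2.64 ± 0.39 (SE) in OEC Lp, with folds of 5.02 on U34A and at least 7.75 on RAE2.0 (limma adjusted p = 0.0221), and its log2 ratio of −1.88 in TEG3 did not pass (adjusted p = 0.0606).

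Fbln2, fibulin-2, a binding partner of laminin, nidogen and fibronectin, was measured on RAE2.0 only, with signals of 47455 in OEC Ep, with 288 in OEC Lp and 8690.2 in TEG3. OEC Lp was lower than OEC Ep by 165-fold and lower than TEG3 by 30.2-fold. Fbn2, fibrillin-2, a microfibril protein of developing tissue, ran against it, with 176 in OEC Ep, 3113 in OEC Lp and the floor in TEG3. In OEC Lp it was 17.7-fold above OEC Ep, where its signal was close to the floor, and at least 18.5-fold higher than in TEG3. Fbn1, the adult fibrillin, was also highest in OEC Lp, by 1.53-fold over OEC Ep and 3.30-fold over TEG3. Fbln1 was highest in TEG3, by 2.14-fold over OEC Ep, on 1 of its 2 probe sets, since the other was below the floor on all arrays. Efemp2, or fibulin-4, was lowest in OEC Lp, by 2.42-fold under OEC Ep. Eln, elastin, was above the floor in OEC Lp alone, at 210.0 on U34A and 198 on RAE2.0. The RAE2.0 value was close to the floor of 168 and rests on 1 of 2 probe sets. Emilin1 differed by less than 2-fold, and Mfap2 and Mfap5 were each above the floor in 1 population.

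OEC Lp was also set against the mean of OEC Ep and TEG3, the contrast of the less with the more regenerative cells, and a gene was called only where both pairwise differences had 1 sign on both types. Over all genes 2.24% were called higher and 0.926% lower. Efemp1 was the only member called, higher in OEC Lp by 4.17 ± 0.35 (SE) on the log2 scale (limma adjusted p = 0.0184), and 0 members were called lower (6 were lower at an unadjusted p under 0.05). Postn, Reln and Tnc had adjusted p-values of 0.0224, 0.0224 and 0.0424 there, but they were low in TEG3 as well as in OEC Lp and so did not meet the rule. Fn1 had a log2 ratio of 1.34 (adjusted p = 0.0759). Leaving out any 1 array ended the call of Efemp1.

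Receptors and cross-linkers of these proteins were counted from a list of 54 genes, of which 24 were tested on both types. In OEC Lp against OEC Ep, 2 rose and 4 fell (limma, adjusted p of 0.0101 to 0.0343), where 2.11% and 4.02% of all genes did. Itgb4, the beta subunit of a laminin receptor of hemidesmosomes and Schwann cells, rose 12.5-fold, and Lox, the enzyme that cross-links collagen and elastin, rose 6.66-fold. Itga1, a subunit of a collagen and laminin receptor, fell 25.5-fold. Changes that rest in part on floored signals are given on the log2 scale: Itga7, a subunit of a laminin receptor, fell by 2.42, Ltbp1, which ties TGF-beta to fibrillin microfibrils, fell by 4.35, and Ptprz1, a phosphatase that binds tenascins, fell by 2.44. In TEG3 against OEC Ep, 1 rose and 3 fell, where 0.639% and 3.7% of all genes did: Lox rose 5.89-fold, Itga1 fell 11.2-fold, Loxl1 fell 5.22-fold and Itga7 fell by 1.82 on the log2 scale. In TEG3 against OEC Lp, 1 was higher and 2 lower, where 0.192% and 1.02% of all genes were: Ltbp1 had a log2 ratio of 4.75, Itgb4 of −4.44, and Loxl1 was 8.43-fold lower. These calls ended too, as did all calls in the table, without any 1 array of the populations compared or without the array type term.

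Postn, Tnc and Reln were called lower in both other populations than in OEC Ep, and Efemp1 was called the other way in OEC Lp. The 250 bases before the annotated start of these members are given here. They are from RefSeq on build GRCr8, 5′ to 3′ on the gene's strand, at chr2:140677811-140678060 (plus strand), chr5:82476132-82476381 (minus), chr4:13628318-13628567 (plus) and chr14:106811614-106811863 (plus). Capitals mark matches to the motifs searched on both strands: the TATA box is TATAAA, the CCAAT box is spelled by its name, the GC box is GGGCGG, the AP-1 site is TGANTCA, the TEAD site is GGAATG and the SOX core is ACAAAG.
Postn: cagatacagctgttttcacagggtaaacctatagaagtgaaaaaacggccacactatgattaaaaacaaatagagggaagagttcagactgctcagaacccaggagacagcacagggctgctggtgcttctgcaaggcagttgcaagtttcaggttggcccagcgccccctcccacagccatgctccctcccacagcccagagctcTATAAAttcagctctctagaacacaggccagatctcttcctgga
Tnc: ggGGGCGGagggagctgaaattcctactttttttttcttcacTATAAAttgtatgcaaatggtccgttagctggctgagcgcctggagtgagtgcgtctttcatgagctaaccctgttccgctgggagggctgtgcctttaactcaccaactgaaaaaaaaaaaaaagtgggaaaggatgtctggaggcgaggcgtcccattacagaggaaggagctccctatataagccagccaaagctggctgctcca
Reln: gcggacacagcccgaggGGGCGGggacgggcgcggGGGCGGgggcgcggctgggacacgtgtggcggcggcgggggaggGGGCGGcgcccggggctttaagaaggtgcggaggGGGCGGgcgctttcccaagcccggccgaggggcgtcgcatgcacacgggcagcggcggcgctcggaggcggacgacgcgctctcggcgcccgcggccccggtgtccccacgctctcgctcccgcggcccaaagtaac
Efemp1: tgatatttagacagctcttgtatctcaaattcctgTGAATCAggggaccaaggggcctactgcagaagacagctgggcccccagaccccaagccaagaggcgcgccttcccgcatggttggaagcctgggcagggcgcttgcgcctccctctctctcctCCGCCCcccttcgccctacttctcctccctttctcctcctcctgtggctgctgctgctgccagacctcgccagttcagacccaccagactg
The windows differ in base composition, with a GC content of 50.8% for Postn, 49.6% for Tnc, 80.0% for Reln and 61.2% for Efemp1. Postn has TATAAA starting 44 bases before the start, Tnc has it 208 bases before, and Reln has GGGCGG at 4 places. Efemp1 has TGAATCA 215 bases before the start and CCGCCC, the GC box on the other strand, 91 before. RefSeq's table held a promoter for 32 of the 45 members: 7 held the TATA box, 7 CCAAT, 19 the GC box, 3 the AP-1 letters, 9 the TEAD letters and 0 the SOX letters, and among all 33469 promoters the shares were 12.9%, 34%, 30.5%, 6.3%, 12.1% and 16.3%. The arrays measured RNA only, so a match describes the letters and not a bound site.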

How the data were processed

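Total RNA of 3 rat cell populations was measured on 6 Affymetrix arrays. The deposited values are linear signal intensities that the authors made with MAS5, per the submitters' processing notes; no detection calls were used. Within a type, arrays were scaled to 1 trimmed mean (2% cut from both ends). Signals under the 40th percentile of the type were set to that floor. Probe sets above it on at least 1 array and with 1 annotated symbol were kept, and their log2 signals were averaged per gene (3726 genes on U34A, 11542 on RAE2.0, 3131 on both). Each type was normalized separately, so every ratio was formed within a type.

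Genes measured on both types entered a limma 3.58.1 fit (R 4.3.3) with terms for population and array type. Array type is the replicate number and so the replicate block, and it pairs the arrays because each type has its own probes. Benjamini-Hochberg adjustment ran over all 3131 genes, with 2 residual and 3.56 prior degrees of freedom. SE is that of the fitted log2 ratio. Genes on RAE2.0 alone have no test. The fit was tested on simulated data. The members and lists were chosen with earlier results of these data known. Values on every array are given for members called in a pairwise comparison, those on RAE2.0 alone with a 4-fold ratio, and a set list of laminins, linkers, Fn1, Sparc, Spp1 and Reln; other members are summarised. Alternatives varied the floor, filter, scaling, probe set rule, block and arrays. Promoters were searched for 6 motifs.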

Additional observations from a re-analysis of the deposited data

How the results depend on the processing

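The number of members called was 6 for OEC Lp against OEC Ep, and 6 for TEG3 in the same contrast. It was 1 for TEG3 relative to OEC Lp and 1 for OEC Lp relative to the average of OEC Ep and TEG3, and all counts here keep this order. It was 3, 3, 0 and 0 with no floor, 1, 2, 0 and 0 with probe sets above the floor on all arrays, and 0 in each with no filter (9, 12, 3 and 6 at an unadjusted p under 0.05). With only the 4 arrays compared it was 3, 0 and 0 in the pairwise comparisons. Quantile normalization gave 6, 7, 1 and 2, and a floor at the 25th percentile, deposited signals or the brightest probe set gave 6, 6, 1 and 1. With no replicate block, so without pairing by array type, it was 0 in each (5, 9, 3 and 4 at an unadjusted p under 0.05). Leaving out 1 array gave 0 to 3, 0 to 0, 0 to 0 and 0 to 0 (7 to 11, 10 to 12, 3 to 7 and 6 to 9 at an unadjusted p under 0.05), and that leaves 1 population with a single array, assumed to vary like the others. The counts of members at least 2-fold apart on RAE2.0 stayed within 1.5 times under all alternatives run on them.

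Over the alternatives, the log2 ratios called in the main analysis kept direction in all 185 cases and lost the call in 116. Uncalled ratios changed sign in 15 of 550 cases. Leaving out 1 array, Lamb2 ranged from −0.13 to 0.37 and Nid1 from −1.15 to 0.75 in OEC Lp against OEC Ep, and Fn1 from −0.42 to 0.070 and Cyr61 from −0.89 to 0.75 in TEG3 against OEC Ep. In TEG3 against OEC Lp, Postn ranged from −1.31 to 0.078, Tnc from −0.62 to 0.47, Sparcl1 from −0.41 to 0.27 and Reln from −0.50 to 0.18. Cyr61 in TEG3 against OEC Ep was 0.015 after quantile normalization, and Tnc in TEG3 against OEC Lp was 0.38 with probe sets above the floor on all arrays and with the brightest probe set. Efemp1 in TEG3 against OEC Ep passed with a floor at the 25th percentile (−3.24) and after quantile normalization (−2.15). The cause of these changes was not tested. Signals near the floor set what can be seen: members at the floor on all arrays are below detection here, and ratios against the floor are bounds.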
